A study of Mus musculus with 6 samples.

Results

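The granule genes of cytotoxic lymphocytes were followed in type 1 innate lymphoid cells (ILC1) of the mouse liver, in mice carrying C1498 leukaemia and in healthy mice. The members were the rows of the deposited read count table whose symbol was Gzma, Gzmb, Gzmc, Gzmk, Gzmm, Prf1, Srgn, Serpinb9, Serpinb6b or Ctsw, and all 10 were found among 24091 genes. The AML group held 3 libraries, from C57BL/6 mice injected intravenously with C1498, a mouse acute myeloid leukaemia line, and the healthy group held 3 libraries, from C57BL/6 mice that received no leukaemia cells. Both groups carry the label of day 14 after tumour. The labels name the liver as tissue and do not say how ILC1 were gated, whether animals were pooled, or that each library came from its own animal, so a p-value here reflects how much the libraries vary, and that variation may be technical.

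Cytotoxic lymphocytes kill by releasing preformed granules into the contact with a target cell. Perforin makes pores in the target membrane, the granzymes are serine proteases that enter through them and cleave proteins of the target, and the proteoglycan serglycin packs both into the granule. Clade B serpins in the cytosol inhibit granzymes that leak inside the killer cell itself. Liver ILC1 are tissue-resident lymphocytes known to carry such granules beside their production of interferon gamma.

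Total counts ran from 45135093 to 51284691 reads in the AML libraries and from 48999439 to 51114701 reads in the healthy libraries. The members span from 15 reads in a library for Gzmk to 403246 for Gzmb, so counting error is small for every member except Gzmk and Gzmm. Markers of the labelled cell were abundant. Of the 12 listed ILC1 markers, 11 were in the table. In AML libraries they summed to 12221 to 13125 CPM, which are reads scaled to a common library size. The sum was 12923 to 13343 CPM in healthy libraries. Most of it was Il2rb, Ncr1, Xcl1 and Klrb1c, which NK cells express too, so the sum alone does not tell ILC1 from NK cells. Itga1, Cd200r1 and Il7r averaged 417, 270 and 64.0 CPM in AML and 378, 230 and 60.9 CPM in healthy libraries. Markers of conventional NK cells, which also carry granzymes, summed to 135 to 170.3 CPM in AML libraries and 133 to 169 CPM in healthy libraries. In that list Klra4 had no read in any library and Eomes stood between 4.96 and 17.1 CPM. In each group, 1 library differed from the other two in a myeloid gene. The neutrophil gene S100a8 measured 36.0 CPM in AML 1 against 0.899 and 2.75 CPM in the other AML libraries. The lysozyme gene Lyz2 measured 459 CPM in healthy 1 against 35.02 and 33.1 CPM in the other healthy libraries, while the AML libraries held 503, 566 and 434 CPM, so that healthy 1 lay among them. Values without these libraries are given where they move a member by over 1.5 times or change its call.

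Per length, granzyme B and granzyme A were the most abundant members. RPKM, which is CPM per kilobase, compares levels between genes because it divides by the deposited gene length. Gzmb averaged 4155 ± 591 RPKM in AML libraries and 5484 ± 425 RPKM in healthy libraries (SD, n = 3 each), and Gzma averaged 4211 ± 315 RPKM in AML libraries and 5415 ± 739.8 RPKM in healthy libraries. By the mean over all 6 libraries they ranked 4 and 5 in the whole count table. These neighbours in the order did not differ beyond their spread, since the ratio of Gzmb to Gzma RPKM ran from 0.940 to 1.06 in AML libraries and from 0.913 to 1.18 in healthy libraries.

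The next members per length were Ctsw, at 1401 ± 16.6 RPKM in AML and 1427 ± 28.0 RPKM in healthy libraries, and Srgn, at 982 ± 151 RPKM in AML and 1192 ± 53.5 RPKM in healthy libraries. Gzmc followed at 544 ± 35.2 RPKM in AML and 582 ± 64.8 RPKM in healthy libraries, then Prf1 at 177 ± 16.8 RPKM in AML and 207 ± 5.92 RPKM in healthy libraries. Both serpins stood near the lower end of this abundant group, with Serpinb9 at 91.4 ± 49.6 RPKM in AML and 132 ± 14.4 RPKM in healthy libraries and Serpinb6b at 86.7 ± 29.6 RPKM in AML and 112 ± 14.9 RPKM in healthy libraries. Their ranges overlapped each other in both groups. Within libraries, the ratio of Serpinb9 to Serpinb6b RPKM was 1.23, 1.13 and 0.717 in AML 1, 2 and 3. It was 1.19, 1.15 and 1.20 in healthy 1, 2 and 3. Gzmm and Gzmk were nearly silent, at 1.76 ± 0.285 and 0.587 ± 0.326 RPKM in AML libraries and 1.38 ± 0.0860 and 0.849 ± 0.504 RPKM in healthy libraries.

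**Figure D1:**
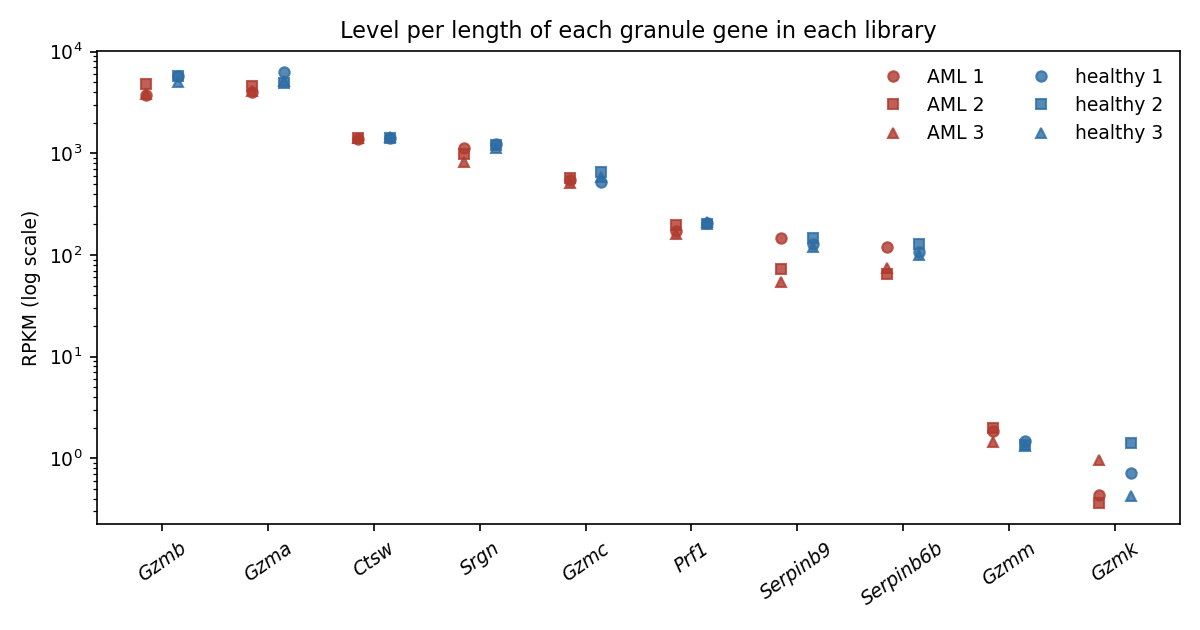
Level of each member in every library in RPKM on a log axis, ordered by the mean over 6 libraries, with AML libraries left of healthy libraries at each gene and 1 marker shape per replicate number. Gzmb and Gzma lie highest in all libraries, 8 members lie above 50 RPKM, and Gzmm and Gzmk lie near or below 2 RPKM.

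The comparison of AML with healthy libraries asks how the granule genes of liver ILC1 differ in leukaemia. In scaled CPM, Gzmb, Gzma, Prf1 and Srgn were lower in every AML library than in every healthy library. Their log2 fold changes ran from -0.23 to -0.40. This order depends on the scaling. By total count alone, Gzma kept it, but AML 2 was not below every healthy library in Gzmb and Prf1, nor AML 1 in Srgn. Ctsw and Gzmc overlapped between the groups, and both serpins were low in AML 2 and AML 3 only. None of the 10 members passed an adjusted p of 0.05 in the quasi-likelihood F test of edgeR. No gene passed among all 12469 tested, a background of 0%. At an unadjusted p below 0.05, the same test counted 4 of the 10 members as lower and 0 as higher in AML, where 3.75% of all genes tested were lower and 5.08% higher at that p. Of all genes, 7.34% had every AML library below every healthy library, and 4 of the 10 members did. The median log2 fold change was -0.32 over the 10 members and 0.01 over all genes, and 9 of the 10 members were negative, against 48% of all genes. All 10 members had passed the filter on low counts. At an unadjusted p below 0.05 in either direction, 4 of the 10 members stood against 8.84% of all genes, and 0 members had every AML library above every healthy library, against 8.2% of all genes. Other fits called 0 members too, namely the likelihood ratio test, which called 0.802% of genes, upper quartile factors with 0.00802%, library size only with 0.016%, no filter on low counts with 0.012% and the fit without healthy 1 with 0.697%. These counts describe genes picked with earlier results known, and no test was made over them as a list.

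Summed over the 10 members, expression was 13922, 15628 and 13489 CPM in AML 1, 2 and 3 and 19065, 17886 and 16881 CPM in healthy 1, 2 and 3. Every AML library thus held less granule message than every healthy library, with means of 14346 ± 1131 CPM in AML and 17944 ± 1093 CPM in healthy libraries (SD, n = 3 each). In these bulk samples, fewer cells with the message and less message per cell cannot be told apart. Because Gzmb and Gzma dominate this sum, each gene is described below on its own.

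**Figure D2:**
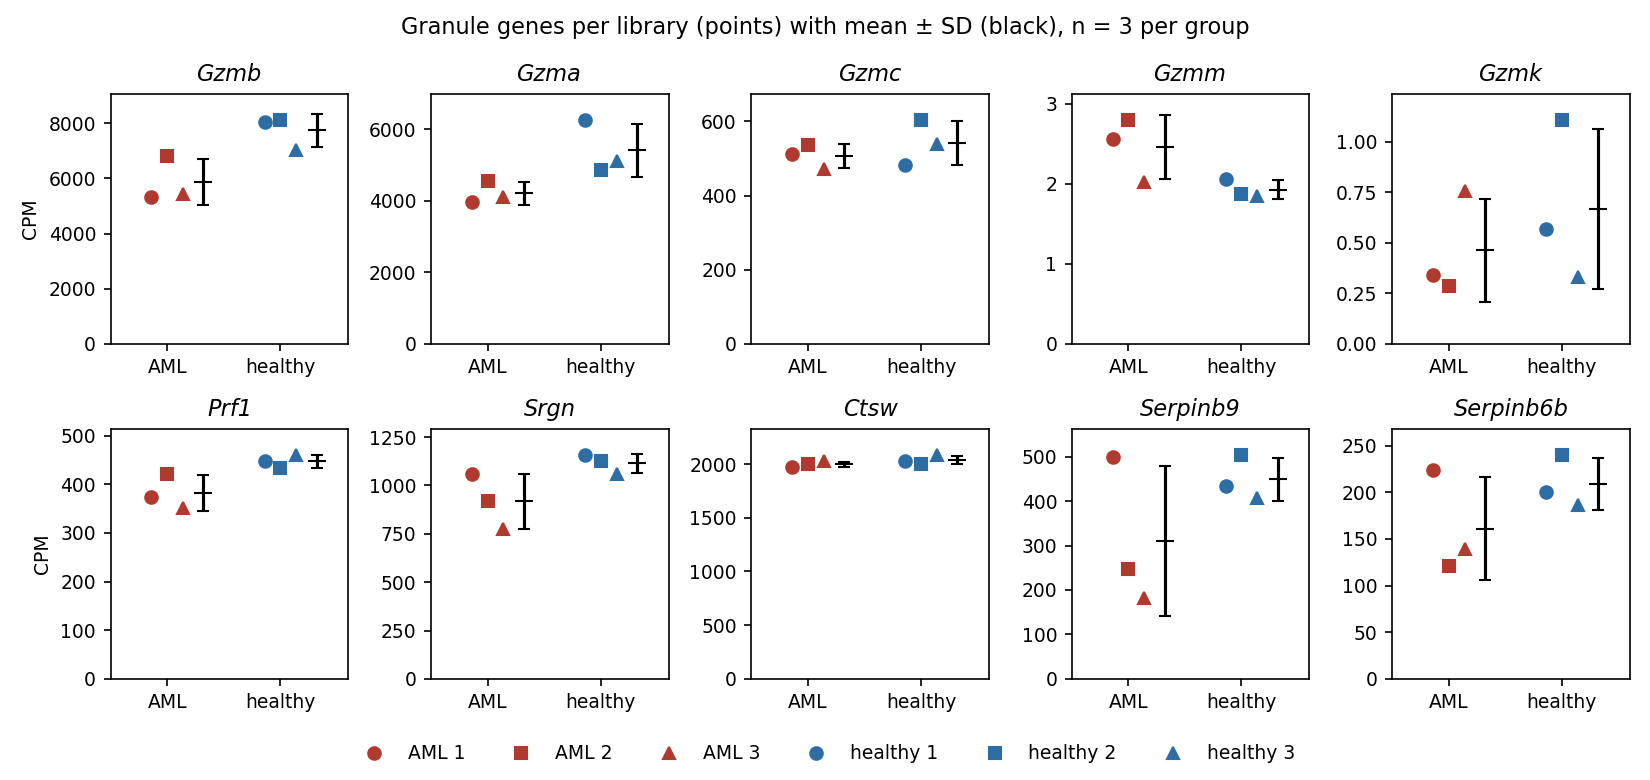
CPM of each member in every library, 1 panel per gene with its own axis from 0, AML left and healthy right, with points for libraries and black bars for mean ± SD of 3 libraries. Gzmb, Gzma, Prf1 and Srgn separate the groups in these scaled CPM, and in Serpinb9 and Serpinb6b AML 1 lies apart from AML 2 and AML 3.

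The start regions are shown because Gzmb, Gzma, Prf1 and Srgn separated the groups in scaled CPM while Gzmc, beside Gzmb, did not. Serpinb9 is included because it was low in AML 2 and AML 3 alone. RefSeq (GRCm38.p6) gave a region of 300 bases, 250 before and 50 after the annotated start, for 9 of the 10 members. Ctsw had no region and was not searched. The 6 motifs searched on both strands were T-box GGTGTG, RUNX TGTGGT, AP-1 TGANTCA, CRE TGACGT, STAT TTCNNNGAA and the TATA box TATAAA, and matches are in capitals. The RUNX letters, the core bound by Runx3 and its relatives, occurred in 7 of the 9 members, namely Gzma, Gzmb, Gzmc, Gzmm, Prf1, Srgn and Serpinb9, against 16.8% of the 32851 regions of the same length in the RefSeq table. The sequences run 5′ to 3′ on the strand of the gene. They cover chr14:56262285-56262584 (minus) for Gzmb, chr14:56234608-56234907 (minus) for Gzmc, chr13:113100932-113101231 (minus) for Gzma, chr10:61297586-61297885 (plus) for Prf1, chr10:62507708-62508007 (minus) for Srgn, and chr13:33004291-33004590 (plus) for Serpinb9.
Gzmb: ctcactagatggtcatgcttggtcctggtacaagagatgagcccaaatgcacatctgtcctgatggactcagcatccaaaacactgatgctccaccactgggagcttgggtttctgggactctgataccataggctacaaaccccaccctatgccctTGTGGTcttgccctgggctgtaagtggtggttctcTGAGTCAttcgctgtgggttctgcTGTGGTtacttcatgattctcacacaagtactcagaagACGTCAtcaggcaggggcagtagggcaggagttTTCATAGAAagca
Gzmc: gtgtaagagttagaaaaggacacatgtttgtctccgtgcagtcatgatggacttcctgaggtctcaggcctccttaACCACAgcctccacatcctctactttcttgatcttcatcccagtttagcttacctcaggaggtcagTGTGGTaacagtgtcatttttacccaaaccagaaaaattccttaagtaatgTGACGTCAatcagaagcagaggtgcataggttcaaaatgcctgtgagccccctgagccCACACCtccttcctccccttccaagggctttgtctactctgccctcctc
Gzma: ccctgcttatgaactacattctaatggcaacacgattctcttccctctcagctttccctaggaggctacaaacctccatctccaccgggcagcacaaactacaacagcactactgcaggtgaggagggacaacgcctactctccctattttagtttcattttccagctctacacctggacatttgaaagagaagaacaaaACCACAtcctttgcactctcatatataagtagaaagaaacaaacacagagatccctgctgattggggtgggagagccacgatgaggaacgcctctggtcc
Prf1: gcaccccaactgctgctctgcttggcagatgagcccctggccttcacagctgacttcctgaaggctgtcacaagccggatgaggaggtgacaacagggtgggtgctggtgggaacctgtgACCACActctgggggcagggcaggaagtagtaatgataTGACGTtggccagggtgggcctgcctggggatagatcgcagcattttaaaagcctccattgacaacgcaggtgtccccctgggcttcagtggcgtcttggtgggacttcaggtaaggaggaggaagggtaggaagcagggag
Srgn: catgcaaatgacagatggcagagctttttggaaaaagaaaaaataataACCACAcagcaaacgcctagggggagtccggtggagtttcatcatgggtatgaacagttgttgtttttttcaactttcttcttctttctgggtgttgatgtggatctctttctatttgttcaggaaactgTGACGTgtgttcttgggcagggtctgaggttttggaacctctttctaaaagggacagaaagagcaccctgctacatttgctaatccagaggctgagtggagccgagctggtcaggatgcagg
Serpinb9: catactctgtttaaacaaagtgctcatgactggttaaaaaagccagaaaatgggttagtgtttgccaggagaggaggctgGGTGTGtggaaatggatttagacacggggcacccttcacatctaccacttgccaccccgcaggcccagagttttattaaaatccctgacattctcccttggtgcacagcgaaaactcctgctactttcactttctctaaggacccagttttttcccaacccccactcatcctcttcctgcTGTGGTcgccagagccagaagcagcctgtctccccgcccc

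In the Gzmb region, whose RefSeq start lies 74 bases upstream of the deposited one, RUNX letters begin at positions -93 and -34 from the start, and an AP-1 match, TGAGTCA, lies between them from -58 to -52. A CRE match begins at position 5 and a STAT match at position 38. AP-1 letters were found in 7.81% of all regions and in no other member searched. CRE letters, present in 7.51% of regions, occurred in Gzmb, Gzmc, Prf1 and Srgn, and in Gzmc the match is read on both strands from -57 to -50, so that its counts overlap. Gzmc carries RUNX matches at -174 and -108, Gzma has 1 at -50, Prf1 1 at -130, Srgn 1 at -202 and Serpinb9 1 at 11. T-box letters, in 19.0% of regions, occurred in Gzmc, Gzmk, Serpinb9 and Serpinb6b, and STAT letters, in 8.3% of regions, in Gzmb and Gzmm. The RefSeq start lies 68 bases upstream of the deposited one in Gzmk and 252 bases upstream in Serpinb6b. The Serpinb6b window therefore ends before the deposited start. The TATA letters, in 13.6% of regions, occurred in 0 of the 9 members searched. A match describes letters in the window and not a bound site.

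Granzyme B cleaves after aspartate and activates caspases in the target. The gene lies on chromosome 14 from 56258858 to 56262260 on the minus strand (mm10). Gzmb measured 5319, 6824 and 5447 CPM in AML 1, 2 and 3 and 8062, 8107 and 7047 CPM in healthy 1, 2 and 3. The lowest healthy library stood just above the highest AML library, AML 2. The means were 5863 ± 834 CPM in AML and 7738 ± 599 CPM in healthy libraries (SD, n = 3 each), so that the AML mean was 75.8% of the healthy mean. The log2 fold change was -0.40 ± 0.11 (SE), with a 95% interval from -0.65 to -0.15 and an adjusted p of 0.404 by the edgeR quasi-likelihood test. The gene ranked 182 of 12469 by p. Among those run, DESeq2 alone called it, with a log2 fold change of -0.40 (adjusted p = 0.0447), and its adjusted p ran from 0.0447 to 0.816 over 18 alternatives. Gzmb was the 1 member DESeq2 called, in a fit that called 1.06% of its genes.

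Granzyme A is a tryptase, which cuts after basic residues, and its gene lies on chromosome 13 from 113093827 to 113100981 on the minus strand. Gzma measured 3955, 4556 and 4097 CPM in AML 1, 2 and 3 and 6246, 4867 and 5100.3 CPM in healthy 1, 2 and 3. All AML libraries lay below all healthy libraries, and healthy 1 stood above the other two. The means were 4203 ± 314 CPM in AML and 5405 ± 738 CPM in healthy libraries, a log2 fold change of -0.36 ± 0.10 with a 95% interval from -0.60 to -0.12 and an adjusted p of 0.449. Without healthy 1 the log2 fold change was -0.25, and without both AML 1 and healthy 1 it was -0.20.

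Granzyme C is a rodent granzyme encoded beside granzyme B. Its gene lies on chromosome 14 from 56231401 to 56234657, 24200 bases from Gzmb with 0 genes of the table between them. Gzmc measured 512, 535 and 471 CPM in AML 1, 2 and 3 and 483, 603 and 539 CPM in healthy 1, 2 and 3. The groups overlapped, with healthy 1 below AML 1 and AML 2. The log2 fold change was -0.10 ± 0.10 with a 95% interval from -0.33 to 0.13 and an adjusted p of 0.760 by edgeR. Single libraries moved this small value both ways, to -0.18 without healthy 1 and to -0.05 without AML 3 and -0.02 without healthy 2. Without both AML 1 and healthy 1 the log2 fold change was also -0.18. The ratio of Gzmb to Gzmc RPKM was 7.62 ± 0.779 in AML and 9.49 ± 1.32 in healthy libraries, and the groups did not overlap in this ratio, the closest pair being 8.40 in AML 2 and 8.62 in healthy 3.

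The other 2 granzymes were scarce. Granzyme M is a protease that cuts after methionine or leucine and is best known from NK cells. Gzmm, on chromosome 10 from 79689020 to 79695261, measured 2.57, 2.79 and 2.02 CPM in AML 1, 2 and 3 and 2.07, 1.87 and 1.85 CPM in healthy 1, 2 and 3. It was the only member with a positive log2 fold change, 0.35 ± 0.29, with a 95% interval from -0.32 to 1.02 and an adjusted p of 0.706, and AML 3 overlapped the healthy libraries. Granzyme K, a tryptase of memory-type T cells, had 16, 15 and 36 reads in AML 1, 2 and 3 and 28, 55 and 16 reads in healthy 1, 2 and 3. Gzmk lies 70892 bases from Gzma on chromosome 13, from 113171874 to 113180897. Its log2 fold change of -0.53 ± 0.66 had a 95% interval from -2.07 to 1.01. The libraries of each group varied widely, and leaving out 1 library took the value from -1.08 without AML 3 to 0.03 without healthy 2, so no direction can be read.

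Perforin forms the pores through which granzymes pass. Prf1, on chromosome 10 from 61297836 to 61304263 on the plus strand, measured 373, 422 and 351 CPM in AML 1, 2 and 3 and 448, 434 and 459 CPM in healthy 1, 2 and 3. The groups did not overlap, though AML 2 came close to healthy 2. The means were 382 ± 36.3 CPM in AML and 447 ± 12.8 CPM in healthy libraries, a log2 fold change of -0.23 ± 0.08 with a 95% interval from -0.42 to -0.03 and an adjusted p of 0.522. Per length, Gzmb exceeded Prf1 by 23.5 ± 1.51 times in AML libraries and 26.6 ± 2.70 times in healthy libraries. Those ratios overlapped between the groups.

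Serglycin is the proteoglycan core protein whose acidic sugar chains hold the basic granzymes and perforin in the granule, and myeloid cells make it too. Srgn, on chromosome 10 from 62494428 to 62507755 on the minus strand, measured 1058.1, 920.4 and 776 CPM in AML 1, 2 and 3 and 1155, 1129 and 1058.4 CPM in healthy 1, 2 and 3. AML 1 and healthy 3 were almost equal, so the groups separate by a very small margin. The means were 918 ± 141 CPM in AML and 1114 ± 49.999 CPM in healthy libraries, a log2 fold change of -0.28 ± 0.11 with a 95% interval from -0.54 to -0.02 and an adjusted p of 0.551. Left-out libraries took it from -0.39 without AML 1 to -0.17 without AML 3.

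Cathepsin W is a cysteine protease found mainly in NK cells and CD8 T cells. Ctsw, on chromosome 19 from 5465043 to 5468507, was the steadiest member, at 1977, 1999 and 2025 CPM in AML 1, 2 and 3 and 2033, 2001 and 2081 CPM in healthy 1, 2 and 3. The coefficient of variation was 1.19% in AML and 1.96% in healthy libraries. Its log2 fold change was -0.03 ± 0.06 with a 95% interval from -0.16 to 0.10 and an adjusted p of 0.885 by edgeR, and the sign turned, to 0.036, when libraries were scaled by their size alone. The ratio of Gzmb to Ctsw RPKM was 2.72, 3.45 and 2.72 in AML 1, 2 and 3 and 4.01, 4.10 and 3.43 in healthy 1, 2 and 3, with AML 2 just above healthy 3. Fibp overlaps Ctsw on the other strand, and these libraries carry no strand information. Fibp reached at most 104 CPM in the table.

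**Figure D3:**
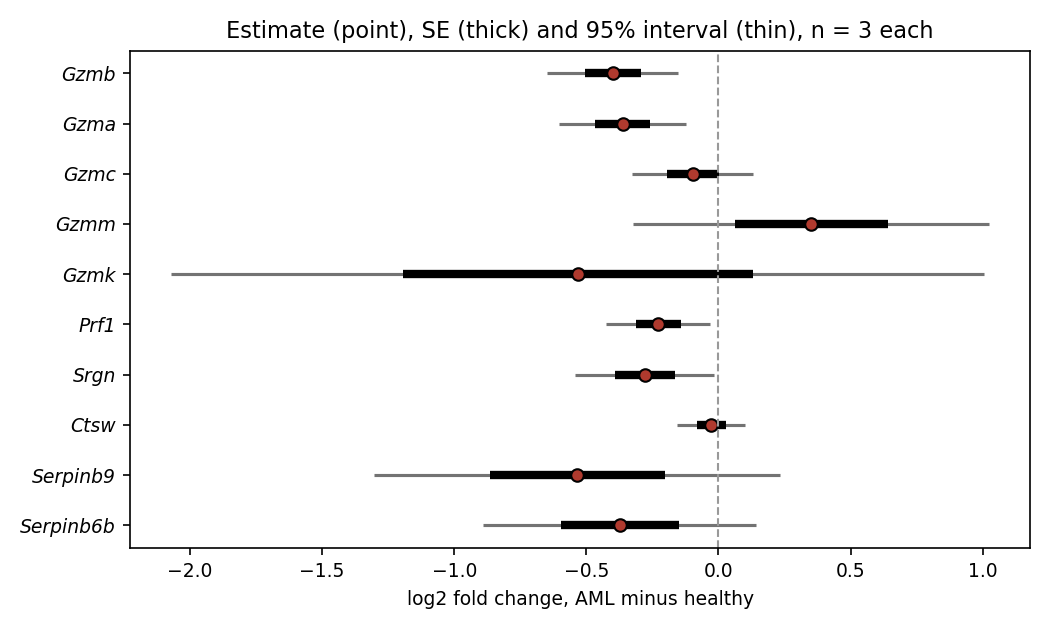
Log2 fold change of each member, AML minus healthy, from the edgeR fit on 3 libraries per group, with thick bars for the standard error and thin bars for the 95% interval. The intervals of Gzmb, Gzma, Prf1 and Srgn lie below 0 before adjustment for the number of genes tested, and those of the other 6 members include 0.

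Within the AML group both serpins split the libraries, with AML 1 high and AML 2 and AML 3 low. Serpinb9 inhibits granzyme B and protects the killer cell from its own protease, and its gene lies on chromosome 13 from 33004541 to 33017955 on the plus strand. Serpinb9 measured 500.2, 248 and 182 CPM in AML 1, 2 and 3 and 435, 503 and 408 CPM in healthy 1, 2 and 3. AML 1 was close to the highest healthy library, and AML 2 and AML 3 lay below all healthy libraries. The means were 309.9 ± 168 CPM in AML and 449 ± 48.8 CPM in healthy libraries, a log2 fold change of -0.53 ± 0.33 with a 95% interval from -1.30 to 0.23 and an adjusted p of 0.640. Without AML 1 the log2 fold change was -1.06 and the adjusted p 0.0262. It was -1.09 with an adjusted p of 0.00697 without both AML 1 and healthy 1, and -0.26 without AML 3. Over 18 alternatives its adjusted p ran from 0.00697 to 0.881. The call therefore rests on leaving out AML 1, and the fit without it had 1 member among the 1.15% of genes it called.

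Serpinb6b, a mouse inhibitor of granzyme A, lies 25503 bases from Serpinb9 on chromosome 13, from 32965513 to 32979037, with 0 genes of the table between them. It measured 224, 121 and 139 CPM in AML 1, 2 and 3 and 200.5, 239.6 and 186 CPM in healthy 1, 2 and 3. Again AML 2 and AML 3 lay below all healthy libraries and AML 1 lay among them. The means were 161 ± 55.1 CPM in AML and 209 ± 27.7 CPM in healthy libraries, a log2 fold change of -0.37 ± 0.22 with a 95% interval from -0.89 to 0.14 and an adjusted p of 0.634. It was -0.69 without AML 1, with an adjusted p of 0.0554, and -0.71 without both AML 1 and healthy 1, with an adjusted p of 0.0238. Without AML 2 the log2 fold change was smaller, at -0.20, with an adjusted p of 0.857. Its adjusted p ran from 0.0238 to 0.887 over 18 alternatives. Without both libraries, 2 members passed, both of them serpins and both lower in AML, among the 3.54% of genes called. The ratio of Serpinb9 to Gzmb RPKM was 0.0391, 0.0151 and 0.0139 in AML 1, 2 and 3 and 0.0225, 0.0258 and 0.0241 in healthy 1, 2 and 3. AML 1 lay above and AML 2 and AML 3 below all healthy libraries in this ratio.

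**Figure D4:**
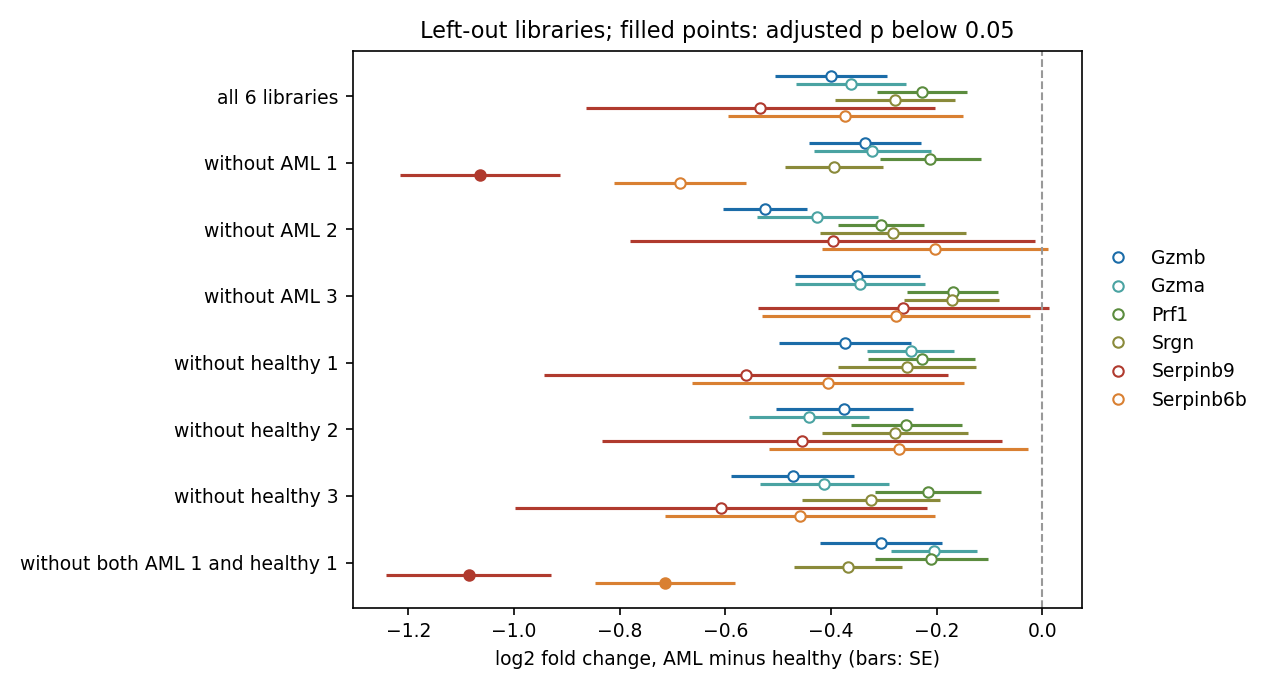
Log2 fold change, AML minus healthy, of 6 members with all 6 libraries and with each library or the pair of AML 1 and healthy 1 left out, with bars for the standard error and filled points for an adjusted p below 0.05. Serpinb9 passes without AML 1 and without both, Serpinb6b passes without both, and Gzmb, Gzma, Prf1 and Srgn stay below 0 without passing.

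The genes whose profile over the 6 libraries was most like that of a member were found by the root mean square distance between log2(CPM + 0.5) values centred on the mean of each gene, over 8337 genes with a mean of at least 10 CPM. For Gzma the nearest was Bspry at 0.03 log2 units, before Pafah1b3, Mecr, Tbl3 and Slc16a6 at 0.07 to 0.08. For Gzmb the nearest were Fam58b, Tpbgl, Pygl, Nat9 and Crmp1, all at 0.07 to 0.08, and for Prf1 they were Usp30, Rai1, Smim20, Eva1b and Cars, at 0.03 to 0.04. Among the members themselves, Gzma and Gzmb were nearest to each other at 0.125, Prf1 was nearest to Gzma at 0.13 and Srgn nearest to Prf1 at 0.14. A distance is small only against the SD of the profile itself. That SD was 0.24 for Gzma, 0.27 for Gzmb, 0.15 for Prf1, 0.60 for Serpinb9 and 0.39 for Serpinb6b. The distance of Prf1 from Gzma was thus close to the whole spread of Prf1. Serpinb9 had Serpinb6b as its nearest member, at 0.27, and Serpinb6b had Srgn, at 0.23.

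Serpinb9 and Serpinb6b were added to this search after their values had been seen. Serpinb9 was most like Nfil3, a transcription factor needed for the development of conventional NK cells, at 0.11. Next came Nrarp, Odc1, Tfip11 and Slc3a2 at 0.12 to 0.13. Nfil3 measured 350.3, 182 and 151 CPM in AML 1, 2 and 3 and 365, 374 and 353 CPM in healthy 1, 2 and 3. As with the serpin, AML 2 and AML 3 were low, and AML 1 came near the healthy libraries. Nrarp, a feedback inhibitor of Notch signalling, measured 34.5, 19.3 and 15.1 CPM in AML 1, 2 and 3 and 34.7, 44.5 and 35.9 CPM in healthy 1, 2 and 3. For Serpinb6b the nearest were Ppp1r3b, Glul, Rsl1d1, Sfr1 and Pik3r1, at 0.08 to 0.11.

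Genes that act with the members were read from fixed lists, and 0 members of any list passed an adjusted p of 0.05 by edgeR. The other granzymes of the mouse locus had almost no counted reads. Gzmd, Gzmg and Gzmn had no read in any library, where 3 reads, the limit that a count of 0 allows, equal 0.0574 to 0.0641 CPM, while Gzme and Gzmf reached at most 0.442 and 0.263 CPM. This matters for Gzmc, because 3.79% of its 51-base windows also occur in transcripts of Gzmd, Gzme or Gzmg, and because Gzmf overlaps it in the count table. Gzmd also lies inside the span of Gzme there. How reads shared between genes were counted is not given, so the limit of 3 reads covers counting error only. Shared windows made up 2.94% of Serpinb6b, with Serpinb6a, Serpinb6c and Gm8436, and 0.351% of Serpinb9, with Serpinb9b, and 0% of the other 7 members.

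Among 15 genes of granule cargo and processing, 9 log2 fold changes were negative and 6 positive, with a median of -0.03. The 3 most abundant were Ctsd, Nkg7 and Laptm5. Cathepsin D, a lysosomal protease, measured 3004 ± 291 CPM in AML and 2927 ± 244 CPM in healthy libraries (SD, n = 3 each). Nkg7, a granule membrane protein needed for degranulation, measured 2433 ± 241 CPM in AML and 2605 ± 172 CPM in healthy libraries, and Laptm5, a lysosomal membrane protein, 2421 ± 276 CPM in AML and 2536 ± 77.6 CPM in healthy libraries. All 3 overlapped between the groups. Their log2 fold changes were 0.04 ± 0.09, -0.10 ± 0.09 and -0.07 ± 0.09 (SE).

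Of 23 genes for granule transport and release, 21 were tested, 15 negative and 6 positive, with a median of -0.04. Coro1a, an actin regulator, measured 1938 ± 34.6 CPM in AML and 2033 ± 171 CPM in healthy libraries. Sytl2, a Rab27a effector, measured 347 ± 28.3 CPM in AML and 372 ± 1.54 CPM in healthy libraries. Unc13d, the Munc13-4 priming factor of granule fusion, measured 279.5 ± 14.2 CPM in AML and 288 ± 14.0 CPM in healthy libraries. In each of these 3 genes the groups overlapped.

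Most other serpins of the family were silent. Of the 10 listed, 2 were tested, Serpinb6a and Serpinb1a. Serpinb6a measured 31.1, 35.4 and 36.8 CPM in AML 1, 2 and 3 and 46.2, 38.7 and 40.5 CPM in healthy 1, 2 and 3, lower in all AML libraries, with a log2 fold change of -0.28 ± 0.11 (adjusted p = 0.539). It did not share the low values of AML 2 and AML 3 against AML 1. Serpinb1a, an inhibitor of neutrophil proteases, measured 4.49 ± 2.37 CPM in AML and 2.38 ± 0.642 CPM in healthy libraries, and Serpinb9f stayed at or below 0.357 CPM.

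Death ligands are the other route of killing. Of 6 listed, 3 log2 fold changes were negative and 3 positive, with a median of 0.01. Fasl, which engages the death receptor Fas, measured 493, 276 and 243 CPM in AML 1, 2 and 3 and 353, 399.7 and 337 CPM in healthy 1, 2 and 3. AML 1 was above and AML 2 and AML 3 below all healthy libraries, the order seen in the ratio of Serpinb9 to Gzmb. Ltb, the lymphotoxin beta gene, measured 512 ± 33.6 CPM in AML and 496 ± 18.1 CPM in healthy libraries, and Tnfsf10, which encodes TRAIL, 314 ± 32.1 CPM in AML and 318 ± 5.96 CPM in healthy libraries.

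Other granule proteases, of mast cells and myeloid cells, gave 5 positive log2 fold changes among 5 tested genes, with a median of 0.51. Cathepsin S, a protease of antigen-presenting cells, measured 114, 66.0 and 85.6 CPM in AML 1, 2 and 3 and 59.5, 12.3 and 9.03 CPM in healthy 1, 2 and 3, and this gene, Ctss, had a log2 fold change of 1.71 ± 0.66 (adjusted p = 0.536). All AML libraries lay above all healthy libraries in Ctss. Ctse measured 30.8 ± 5.19 CPM in AML and 29.2 ± 3.56 CPM in healthy libraries, and Cpa3, a mast cell carboxypeptidase, 0.981 ± 0.3204 CPM in AML and 0.777 ± 0.289 CPM in healthy libraries. The mast cell proteases Mcpt1, Mcpt2, Mcpt4, Tpsb2 and Tpsab1 had no read.

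Regulators of the granule program gave 6 negative and 7 positive log2 fold changes among 13 tested genes, with a median of 0.01. Bhlhe40, a transcription factor that supports interferon gamma production, measured 2142.5, 906 and 772 CPM in AML 1, 2 and 3 and 2017, 2724 and 2197 CPM in healthy 1, 2 and 3. It was low in AML 2 and AML 3, and AML 1 lay among the healthy libraries, as for the serpins. The edgeR log2 fold change was -0.86 ± 0.36 (adjusted p = 0.564). Id2, needed for all innate lymphoid cells, measured 1924 ± 269 CPM in AML and 1947 ± 363 CPM in healthy libraries. Tbx21, the T-bet factor that drives granzyme and perforin genes, measured 779 ± 39.7 CPM in AML and 696 ± 61.3 CPM in healthy libraries, with a log2 fold change of 0.16 ± 0.09.

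**Figure D5:**
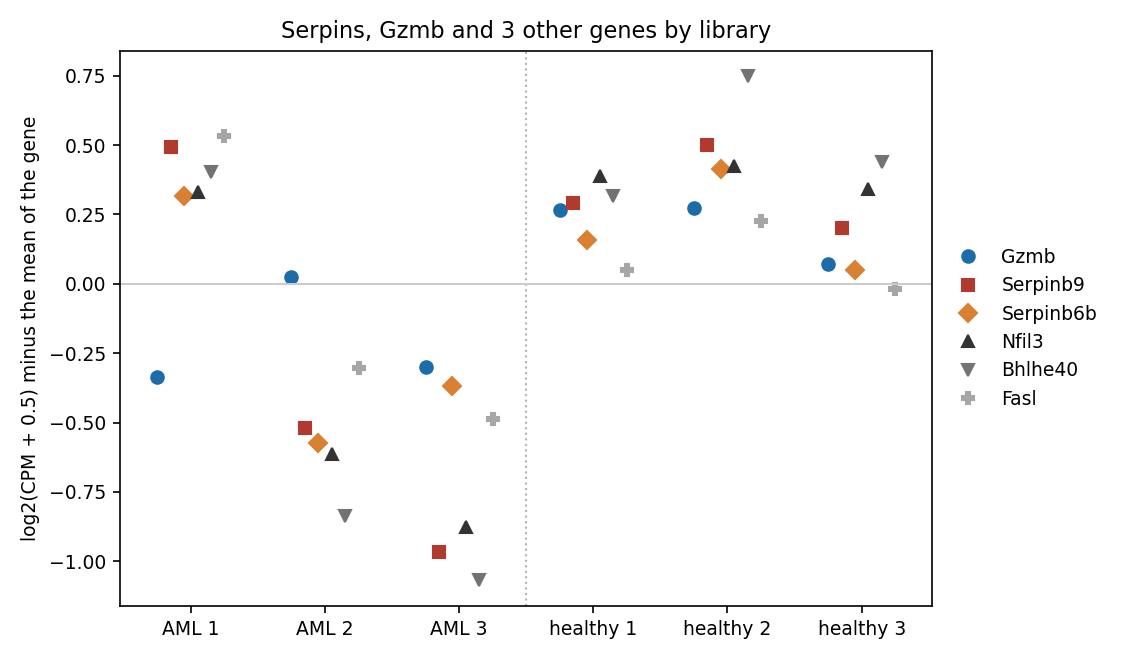
Log2(CPM + 0.5) minus the mean of each gene over 6 libraries, for Gzmb, Serpinb9, Serpinb6b, Nfil3, Bhlhe40 and Fasl, with AML libraries left of the dotted line and healthy libraries right of it. All plotted genes except Gzmb are high in AML 1 and low in AML 2 and AML 3, while Gzmb is below its mean in AML 1 and AML 3.

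Markers of other cells moved with the groups or with single libraries. The list of T cell markers, cells that can also carry granzymes, had 9 of 11 genes in the table. It summed to 1080, 1467 and 1368 CPM in AML 1, 2 and 3 and 1798, 1639 and 1492 CPM in healthy 1, 2 and 3, lower in all AML libraries. Most of this was Cd3g, which measured 950.3, 1292 and 1175 CPM in AML 1, 2 and 3 and 1646, 1458 and 1316 CPM in healthy 1, 2 and 3. Cd8a stood at 3.04 to 16.5 CPM in AML libraries and 3.38 to 10.5 CPM in healthy libraries. Cd3e stood at 6.2 to 39.6 CPM in AML libraries and 10.5 to 22.0 CPM in healthy libraries. Of the 9 T cell genes tested, 5 log2 fold changes were negative and 4 positive. Only 1, Cd3g, had every AML library below every healthy library, against 7.34% of all genes tested. All 11 Kupffer cell and macrophage markers were in the table and summed to 120 to 192 CPM in AML and 24.7 to 84.5 CPM in healthy libraries. Of the 9 tested, 5 had every AML library above every healthy library, against 8.2% of all genes tested, and the other 4 overlapped. The 5 were Adgre1, C1qa, C1qb, C1qc and Ms4a7.

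All 11 dendritic cell markers summed to 1229 to 1409.5 CPM in AML libraries and 932 to 972 CPM in healthy libraries. Most of this was Itgax, an integrin gene, at 713 ± 47.4 CPM in AML and 742 ± 42.3 CPM in healthy libraries, which overlapped. In 6 of the 11 genes the AML libraries were all higher than the healthy ones, against 8.2% of all genes tested. These included Cd74, the invariant chain of MHC class II, at 298 ± 90.0 CPM in AML and 74.0 ± 27.6 CPM in healthy libraries. The MHC class II genes H2-Aa, H2-Ab1 and H2-Eb1 averaged 58.2 ± 15.7, 95.2 ± 29.0 and 54.2 ± 18.2 CPM in AML and 15.4 ± 6.19, 25.4 ± 10.6 and 14.5 ± 5.26 CPM in healthy libraries, and Siglech had no read in healthy libraries. The 11 monocyte and neutrophil markers summed to 789 to 959 CPM in AML libraries and 255 to 703 CPM in healthy libraries, the highest in healthy 1. Ly6g had 0 reads throughout. Of the 9 tested, all 9 had positive log2 fold changes. In 3 of them, among these Ccr2, every AML library was above every healthy library, against 8.2% of all genes tested. The 8 mast cell and basophil markers, cells that can make granzyme B, summed to 16.6 to 28.9 CPM in AML and 6.75 to 24.4 CPM in healthy libraries. Most of this was Kit, at 20.8 ± 6.04 CPM in AML and 13.8 ± 8.58 CPM in healthy libraries. Cpa3 and Mcpt8 reached at most 1.30 and 1.13 CPM in any library. Of the 8 genes, Prss34 and Tpsb2 had no read. The 7 B and plasma cell markers in the table summed to 5.47 to 6.72 CPM in AML and 5.48 to 7.68 CPM in healthy libraries, with Pax5 at 0 reads. Hepatocyte markers summed to 1.65 to 2.86 CPM in AML and 1.13 to 6.06 CPM in healthy libraries, with Tat at 0 reads. Liver endothelial markers summed to 96.5 to 116 CPM in AML and 91.1 to 126 CPM in healthy libraries, almost all of it Pecam1, with Lyve1 at 0 reads. The part of these cells in the granule gene values was not tested.

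In the authors' deposited table of fold changes, 9 of the 10 members were listed and Gzmk was not. The authors' deposited table gives adjusted p-values from 0.225 for Gzmb to 0.999 for Ctsw, with 0 of the 9 members below 0.05, where 0.758% of its 9769 genes were. Its log2 fold changes, such as -0.39 for Gzmb and -0.53 for Serpinb9 in the authors' deposited table, have the same sign as those above for all 9 members.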

How the data were processed

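Messenger RNA of liver ILC1 was measured in 3 AML and 3 healthy libraries, made from 2 ng of total RNA with poly(A)-primed SMART-Seq cDNA and read as single reads of 51 bases without strand information, per the labels' protocols. The raw read counts per gene were deposited by the authors as whole numbers. Per the submitters' processing notes, the tools were STAR 2.6.0, edgeR 3.28.1, HTSeq 0.6.0 and bcl2fastq 2.18.0.12, with hg19 and mm10 listed as builds and no role for any; how reads were assigned to genes is not given in the sources used here. A second table, the authors' own comparison, holds log2 fold changes, a likelihood ratio score, p-values and log2 average CPM per the file headers. Its values per library, deposited by the authors, follow the RPKM of the counts by a factor of 1.01 in each library, and were used in no test.

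Genes were tested with the edgeR 4.0.16 quasi-likelihood F test in R 4.3.3, two-sided, with TMM scaling, filterByExpr at a minimum count of 10 and the group as the only term, adjusted by Benjamini-Hochberg over 12469 genes. The standard error is the log2 fold change divided by the root of F. With 3 against 3 libraries an exact permutation test of 1 gene cannot go below p = 0.1. CPM use TMM-scaled library sizes, and RPKM divide them by the deposited length. The 18 alternatives used limma 3.58.1, DESeq2 1.42.0, other scalings, filters, a replicate block and left-out libraries. Scripts were tested on simulated data. No 2 libraries held identical counts. Positions are those of the count table, taken as mm10, and transcript windows and overlaps came from GENCODE M21. The members, lists and tests were chosen with earlier results of these data known. Named genes were the 10 members, the 3 most abundant genes of each pathway list and the 5 genes nearest in profile to Gzma, Gzmb and Prf1. The other genes named, among them Nfil3, Nrarp and the genes nearest to the serpins, were markers or were chosen after their values were seen.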

Additional observations from a re-analysis of the deposited data

How the results depend on the processing

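In the AML against healthy comparison, 0 genes passed the edgeR quasi-likelihood test and 1102 had an unadjusted p below 0.05, while the likelihood ratio test called 100 genes, DESeq2 149, upper quartile factors 1, library size alone 2, no filter on low counts 2, and limma-voom 0. Without both AML 1 and healthy 1 the quasi-likelihood test called 444. Leaving out 1 library at a time gave 0 to 147 genes, the highest without AML 1, and 89 without healthy 1. Among the members, DESeq2 called 1 (Gzmb) and the fit without both AML 1 and healthy 1 called 2 (Serpinb9 and Serpinb6b), and single left-out libraries gave 0 to 1. Of the 10 members, 8 kept their sign in all 18 alternatives. The log2 fold change of Ctsw turned to 0.036 with library size alone, and that of Gzmk ran from -1.08 without AML 3 to 0.027 without healthy 2. Gzmk was not fitted at a minimum count of 50. For these members the cause was not tested. The summed CPM of the members moved by less than 1 SD in every alternative run on it, from 13649 to 14658 in AML and from 17479 to 18613 in healthy libraries. Scaling by library size alone set the median log2 difference of all genes to 0.07, against 0.01 with TMM. By library size alone, Gzma still had every AML library below every healthy library, but Gzmb, Prf1 and Srgn did not. With the replicate number as a block 0 genes passed and no call changed. The numbers were not taken to pair the libraries, since the labels do not say that they do. In their deviations from the group means, same-numbered libraries correlated by 0.133, -0.112 and 0.225. Libraries of different number correlated by -0.308 to 0.175. Few reads stand behind Gzmk and Gzmm, and reads without molecular identifiers make counting limits cover counting error only.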
